A study of Arabidopsis thaliana with 40 samples.

Results

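The pentatricopeptide repeat (PPR) cluster on the long arm of *Arabidopsis* chromosome 1 is represented here by 10 genes, *AT1G62590*, *AT1G62670*, *AT1G62910*, *AT1G62914*, *AT1G62930*, *AT1G63080*, *AT1G63130*, *AT1G63150*, *AT1G63330* and *AT1G63400*. They were taken by their locus identifiers from 33601 gene rows, and all 10 have a row in each gene table. smRNAs and total RNA were sequenced from untreated, unopened flower buds of 30-day-old plants of the ecotype Col-0 and of the mutants *rdr1*, *rdr2*, *rdr3*, *rdr4*, *rdr5*, *rdr6*, *sgs3* and *rdm12*. The series describes the mutants as T-DNA knockouts, and a single allele stands for each gene (*rdr1-1*, *rdr2-1*, *rdr3-1*, *rdr4-1*, *rdr5-1*, *rdm12-1*, *rdr6-11* and *sgs3-11*). The 40 libraries comprise a main set of 16 smRNA and 16 total RNA libraries (Col-0 and 7 mutants, 2 libraries each) and an *rdr3* set of 4 smRNA and 4 total RNA libraries (*rdr3* and Col-0, 2 libraries each). For *rdr3* total RNA the labels cite control libraries by numbers that match no Col-0 total RNA library here, so the controls behind the total RNA means of that set are uncertain. Every group shares the soil and the long-day growth conditions.

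PPR proteins bind RNA in mitochondria and chloroplasts through tandem repeats, and many of them act in the processing, editing or translation of organellar transcripts. In *Arabidopsis* a subset of closely related PPR mRNAs is known as a source of phased secondary siRNAs. In that pathway a small RNA guides cleavage of the mRNA, SGS3 and RDR6 convert a fragment into double-stranded RNA, and DCL4 cuts the duplex into 21 nt siRNAs in a fixed register. miR161, miR400 and siRNAs of the loci *TAS1* and *TAS2*, which are themselves set off by miR173, are known to target PPR mRNAs.

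Each level below is the authors' mean over all libraries of a set, in log2 CPM, that is read counts scaled to the size of the library. It carries no error and no n, because the values used here are one per feature and set and not one per library. The mean was identical in the tables of the 7 main mutants (maximum difference 0), so it describes Col-0 and the mutants together, including *rdr6* and *sgs3*. No genotype is compared and no test is reported. Library totals were not in the values used, so depth per library is unknown. A feature without reads was listed at -3.86 in the main sense smRNA table and -4.14 in the antisense table, and at -1.85 and -1.77 in the total RNA tables. In the *rdr3* set these lowest values were -5.28 and -5.29 for smRNAs and -2.83 and -2.73 for total RNA.

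The label of the tissue was checked against marker genes. In main sense total RNA the 6 floral markers *AP1*, *AP3*, *PI*, *AG*, *SEP3* and *AMS* had levels of 3.24 to 4.91. The seed storage genes *CRU1* and *OLEO1* were at -1.81 and -1.85, with *OLEO1* at the lowest value of the table, while of the root markers *PYK10* was at -0.85, *SHR* at 1.66 and *SCR* at 1.72. Their part in the results was not tested. The gene tables list reads with several mapping places in a row of their own. This row held 75.7% (sense) and 82.0% (antisense) of all smRNA CPM in the main set, against 97.6% in both smRNA tables of the *rdr3* set.

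The 10 genes lie on chromosome 1 of TAIR10 between position 23176930, where *AT1G62590* ends on the minus strand, and position 23509484, where *AT1G63400* ends on the plus strand. *AT1G62590*, *AT1G62670* and *AT1G63080* are on the minus strand and the others on the plus strand. *AT1G62670* is *RPF2* and *AT1G62930* is *RPF3*, RNA processing factors that are known to act on the 5′ ends of mitochondrial transcripts. The other members are annotated as PPR or tetratricopeptide repeat-like proteins without a gene name. Each coding sequence is a single uninterrupted stretch of 1587 nt (*AT1G62914*) to 1905 nt (*AT1G62590*). Across the 45 pairs the coding sequences were 82.7% to 99.0% identical over aligned positions, with a median of 86.9%. The closest pair was *AT1G62590* with *AT1G63330*, and the most distant pair was *AT1G63080* with *AT1G63150*.

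smRNAs were abundant at most members. The median member level was -0.41 for sense and 0.02 for antisense smRNAs, beside -2.96 and -3.75 for all genes. 9 of the 10 members lay above the median of 500 genes annotated as PPR genes, which was -3.06 (sense) and -3.72 (antisense). The exception on both strands was *AT1G63330*.

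*AT1G63080* had the highest sense smRNA level of the cluster, 4.01, with an antisense level of 1.42. *AT1G63130* followed at 3.07 sense and 2.97 antisense, and *AT1G63150* at 2.58 sense and 3.35 antisense. These 3 genes were high on both strands. *AT1G62914* was at 1.64 sense and -0.03 antisense.

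The next members lay close to each other on the sense strand. *AT1G62910* was at -0.23 sense and -1.45 antisense. *RPF2* was at -0.59 sense and -0.999 antisense, and *RPF3* at -0.60 sense and 0.08 antisense. Whether such neighbours differ beyond the spread between libraries cannot be read from a mean without error. *AT1G62590* was at -1.65 sense and -1.68 antisense.

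*AT1G63400* was the most one-sided member. Its antisense level of 5.46 was the highest of all PPR-annotated genes and above 99.8% of gene rows, while its sense level was -1.57. *AT1G63330* stood at the other end, with -3.82 sense and -4.10 antisense, 0.039 and 0.041 above the values of a feature without reads.

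**Figure D1:**
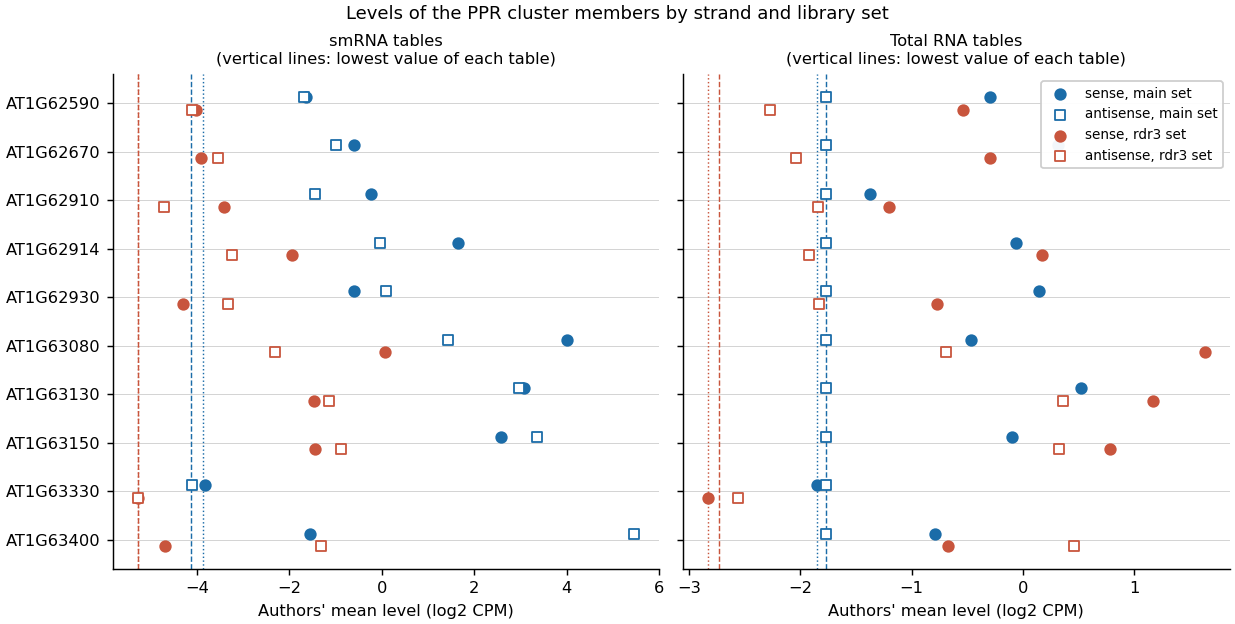
The plot of member levels gives the authors' mean level in log2 CPM (x axis) for each of the 10 members (y axis) in the smRNA tables (left) and the total RNA tables (right). Filled circles are the sense strand, open squares the antisense strand, blue the main set and red the *rdr3* set, and dotted and dashed vertical lines mark the lowest value of the sense and antisense tables. *AT1G63400* stands out by its antisense smRNA level of 5.46, and the antisense total RNA of all 10 members lies on the lowest value in the main set.

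The strands were compared within each member. The antisense minus sense difference in log2 CPM was 7.03 in *AT1G63400*, 0.77 in *AT1G63150* and 0.68 in *RPF3*. The other 7 members had more sense than antisense smRNA, from a difference of -0.036 in *AT1G62590* to -2.59 in *AT1G63080*. The strand tables were normalized separately, and reads with several mapping places were 0.60 higher (log2) in the antisense table. With the antisense table lowered by that shift the same 3 members remained higher on the antisense strand, with differences of 6.43, 0.17 and 0.08. In the *rdr3* set 5 members were higher on the antisense strand, the 3 above together with *RPF2* (0.37) and *AT1G63130* (0.34). The difference in *AT1G63400* was 3.38 in that set.

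In the *rdr3* set all smRNA levels of the cluster were lower on this scale. The median member was at -3.66 (sense) and -3.28 (antisense), and the median of all genes was at -4.96 and -5.12. *AT1G63080* was again the highest on the sense strand, at 0.06, and *AT1G63150* the highest on the antisense strand, at -0.88, followed by *AT1G63130* at -1.14 and *AT1G63400* at -1.32. *AT1G63330* was at the lowest value on both strands.

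Since the gene tables set reads with several mapping places apart, the members were also described by the 500 nt genomic bins, in which levels are not separated by strand. In these bins every member had high smRNA levels, including *AT1G63330*. The sources used here do not say how bins count reads with several mapping places. The bin levels and ranks below may therefore include reads that stem from related genes. After the CPM of a bin without reads was subtracted, the bins of a member summed to between 34.7 CPM (*RPF2*) and 186 CPM (*AT1G63400*), a range of 5.35-fold. The gene rows of both strands summed to between 0.0035 CPM (*AT1G63330*) and 44.3 CPM (*AT1G63400*). The 2 kinds of table were normalized separately, so these sums are set side by side and not tested. On that footing the gene rows amounted to 0.00466% (*AT1G63330*) to 23.8% (*AT1G63400*) of the bins.

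The same ratio was 65.4% for *MIR161*, 58.4% for *TAS1A*, 77.8% for *TAS1C* and 84.7% for *TAS2*, loci that also yield 21 nt RNAs. It was 7.89% for *MIR400*, which shares its bins with other sequence. By gene rows *AT1G63330* ranked last of the 10 and by bins 7th, with 75.02 CPM. *AT1G62910* rose from 7th by gene rows to 2nd by bins, with 168 CPM. Only 3 of the 10 members kept the same rank, *AT1G63400*, *AT1G63130* and *AT1G62590*.

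The share of single-copy sequence differed widely among members. Of the 21 nt words of the gene, 3.62% occurred once in the genome in *AT1G63330*, 11.8% in *AT1G62590* and 14.9% in *AT1G62910*, compared with 67.1% in *AT1G63080*, 57.0% in *RPF2* and 55.9% in *AT1G63150*. In the bin with the highest smRNA level the share was 1.88% (*AT1G62910*) to 57.3% (*AT1G63150*). *AT1G63330*, nearly a copy of *AT1G62590*, had the lowest gene rows and the fewest words of its own, and these 2 values are given together without a test of their relation. In *RPF2*, with its high share of single-copy words, the gene rows amounted to 2.99% of the bins.

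**Figure D2:**
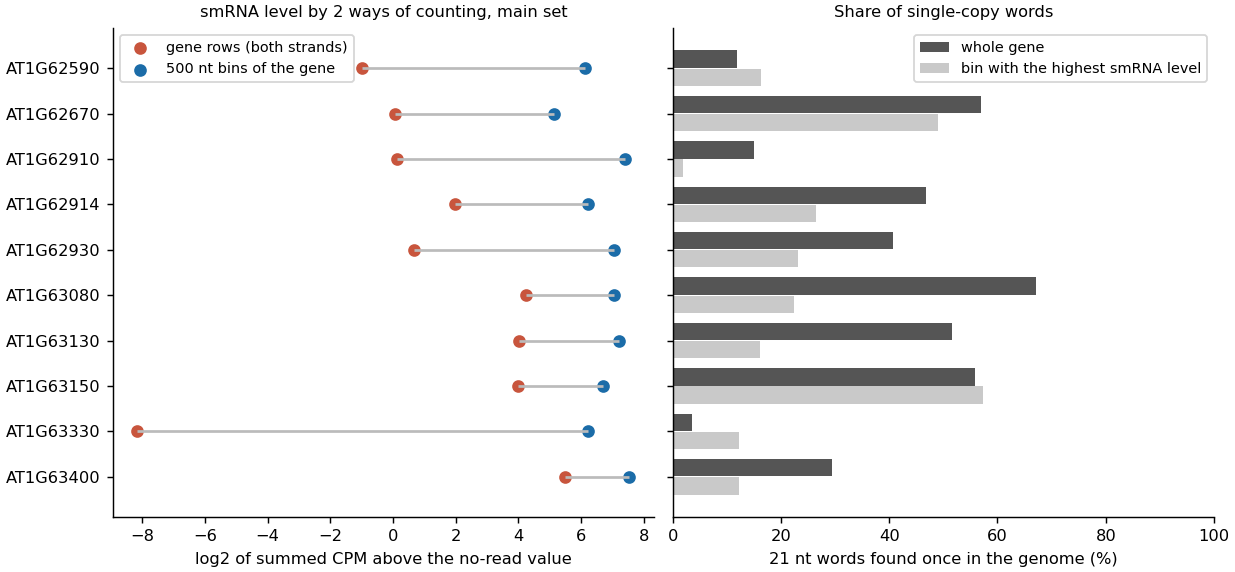
Left, log2 of the summed smRNA CPM above the value of a feature without reads (x axis) by gene rows of both strands (red) and by the 500 nt bins of the gene (blue) for each member in the main set. Right, percent of 21 nt words found once in the genome, over the whole gene (dark bars) and in the bin with the highest smRNA level (light bars). The bins of the 10 members span 5.35-fold, while *AT1G63330* is far below the others by gene rows.

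Along the genes, smRNAs were concentrated in few bins. The highest bin of a member was at 4.70 (*RPF2*) to 7.34 (*AT1G63400*), above 98.1% to 99.7% of all 239338 bins, and was centred 587.5 nt (*AT1G63080*) to 1232.5 nt (*AT1G63130*) from the 5′ end of the gene. The highest pair of bins held 87.4% to 99.1% of the CPM of the member.

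In *AT1G63400* the bins from the 5′ to the 3′ end were at -3.81, 0.66, 7.34, 4.46 and -2.74. In *AT1G62590* they were at -3.16, 3.13, 5.88, 1.15, -1.30 and -3.57. In *AT1G62910* they were at -3.66, -2.91, 6.61, 6.09, 1.12 and -3.80, so that the level rose from -2.91 to 6.61 between neighbouring bins. *AT1G63330* had the highest first bin of the members, which reaches upstream of the gene, with 2.64, followed by 4.53, 5.48, 0.39 and -3.80.

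The highest bin was the same in both library sets in 8 of 10 members, the exceptions being *RPF3* and *AT1G63080*, where neighbouring bins were nearly level. Of the 56 bins that overlap a member, 22 (39.3%) were above a log2 CPM of 3, a value chosen after the bins had been seen. The other 649 bins of the region, with flanks of 10 kb, had 24 such bins (3.70%), and the genome as a whole 5.34%. High bins outside the members included the neighbouring PPR gene *AT1G63070* at 4.94, the guanylate cyclase gene *NOGC1* at 5.10, and an intergenic bin at 8.00.

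**Figure D3:**
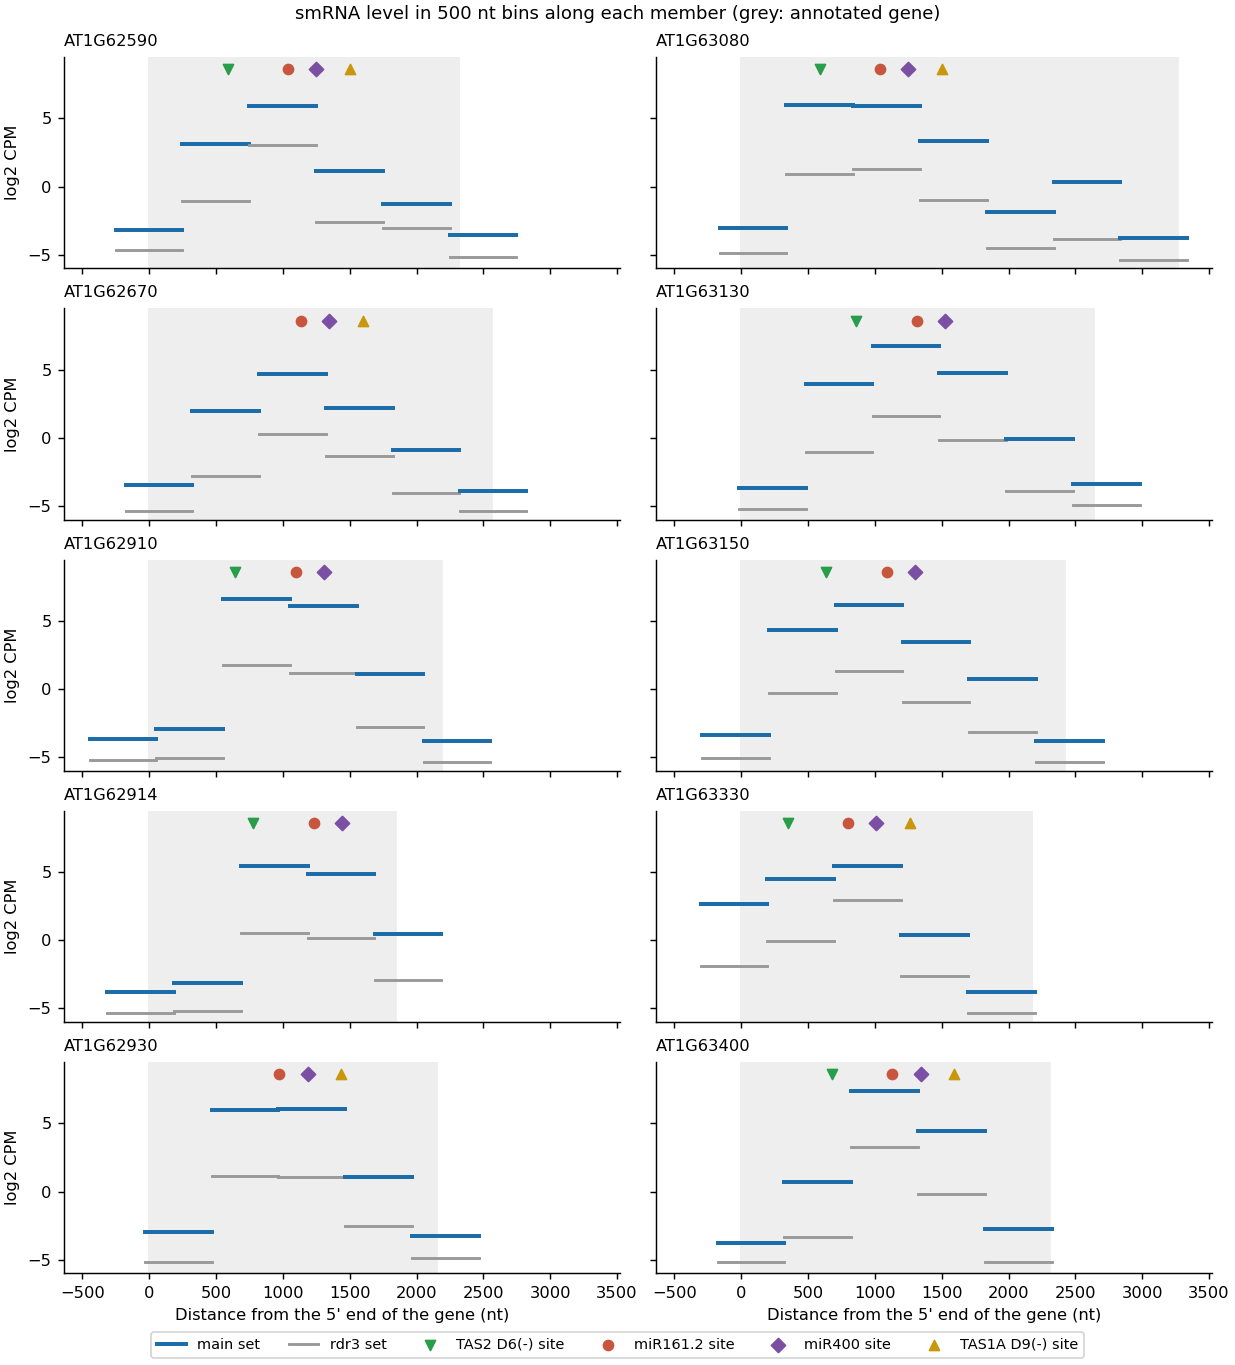
smRNA level in log2 CPM (y axis) of the 500 nt bins along each member, by distance from the 5′ end of the gene in nt (x axis), with the main set in blue, the *rdr3* set in grey lines and the annotated gene shaded. Symbols at the top mark predicted sites of TAS2 D6(-) (green), miR161.2 (red), miR400 (purple) and TAS1A D9(-) (yellow). The miR161.2 site lies in the highest bin of 7 of the 10 members, and the last bin is at -2.74 or lower in every member but *AT1G62914* (0.47).

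Predicted small RNA sites were placed on the members because such sites set the start of phased siRNAs. The search covered 132 small RNAs, namely the 4 mature miRNAs miR161.1, miR161.2, miR400 and miR173 and the 128 siRNAs of 16 cycles on both strands of *TAS1A*, *TAS1B*, *TAS1C* and *TAS2*, counted from the miR173 site of each locus. The sequences were read from the RefSeq annotation and genome of TAIR10.1. Each mismatch added 1 to the score of a site and each G:U pair 0.5, with both doubled at positions 2 to 13 of the small RNA, and sites up to a score of 5 were kept. The 5 small RNAs with sites in the most members are printed 5′ to 3′ as DNA, with the seed (bases 2 to 8) in capitals. The 8 small RNAs with a site had 8 different seeds, so no group shared one.
miR161.2: tCAATGCAttgaaagtgacta
miR161.1: tGAAAGTGactacatcggggt
miR400: tATGAGAGtattataagtcac
TAS2 D6(-): aTATCCCAtttctaccatctg
TAS1A D9(-): cCAATGCTttttctagtttcg

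miR161.2 and miR400 had a site in all 10 members, with scores of 1 to 4 and 2 to 5. miR161.1, which is cut from the same precursor as miR161.2, had a site in 8 members, TAS2 D6(-) in 8 and TAS1A D9(-) in 6. miR173 had none within the limit. All of these sites were in the coding sequence.

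The sites were rare in PPR-annotated genes elsewhere and in genes without that annotation, but not in the other PPR-annotated genes of the region. miR161.2 had a site in 4 of the 9 other PPR-annotated genes of the region, in 2.91% of the 481 PPR-annotated genes elsewhere and in 0.0638% of 37594 genes without that annotation. The corresponding values for miR400 were 3 of 9, 5.41% and 0.0745%. For TAS2 D6(-) they were 2 of 9, 1.04% and 0.0372%. For miR161.1 they were 3 of 9, 2.29% and 0.0133%, and for TAS1A D9(-) 4 of 9, 2.49% and 0.170%. Sites of miR161.2, miR400 and TAS2 D6(-) occurred together in 8 members, 1 other PPR-annotated gene of the region (*AT1G63070*), 1 PPR-annotated gene elsewhere and 0 genes without the annotation. At score limits of 4 and 3 they occurred together in 7 and 3 members. These are sequence matches and no measure of cleavage.

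The miR161.2 sites are shown for every member because the highest smRNA bins lay at or near them. Bases that do not form a Watson-Crick pair with the miRNA are in capitals, and the sense strand of the gene is printed.
AT1G62590, chr1:23178190-23178210: tagtcacGttcaatgcattga
AT1G63330, chr1:23490603-23490623: tagtcacGttcaatgcattga
AT1G63150, chr1:23420381-23420401: tTgtTactttcaatgcattga
AT1G63400, chr1:23508308-23508328: tagtcactttcaaCgcattga
AT1G62910, chr1:23300042-23300062: tagtcactttcaGCgcattga
AT1G62914, chr1:23302543-23302563: tagtcactttcaGCgcattga
AT1G62930, chr1:23307507-23307527: tagtcactttcaGCgcattga
AT1G63130, chr1:23413830-23413850: tagtcactttcaGCgcattga
AT1G62670, chr1:23205669-23205689: taTtcactttcaGCgcattga
AT1G63080, chr1:23389780-23389800: tagtcactttcaaCTcattga

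The sites differed from a full match at 1 to 3 bases. *AT1G62590* and *AT1G63330* had the best score, 1, with a single mismatch, and *AT1G63150* scored 1.5. *AT1G63400*, the member with the highest bin, scored 2. 4 members shared an identical site with a score of 3, and *RPF2* and *AT1G63080* scored 4. *AT1G63080* had a further miR161.2 site with a score of 5.

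The TAS2 D6(-) sites fell into 3 sequences, shown because the siRNA register described below is counted from them, again with capitals for bases that form no Watson-Crick pair, whether mismatches or G:U pairs.
AT1G63080, chr1:23390231-23390251, and AT1G63130, chr1:23413379-23413399: cagatggtGgaaatgggatat
AT1G62910, chr1:23299591-23299611, AT1G62914, chr1:23302092-23302112, and AT1G63150, chr1:23419930-23419950: caAatggtCgaaatgggatat
AT1G62590, chr1:23178641-23178661, AT1G63330, chr1:23490152-23490172, and AT1G63400, chr1:23507857-23507877: caAatggtGgaaatgggGtat

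The first of these sites scored 1 and the others 3. *RPF2* and *RPF3* had no site for this siRNA within the limit. The spacing of the sites was the same wherever they occurred. The miR400 site began 212 nt 3′ of the miR161.2 site in all 10 members, the miR161.2 site began 451 nt 3′ of the TAS2 D6(-) site in all 8 members that have both, and the miR161.1 site began 9 nt 5′ of the miR161.2 site in 8 members.

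The miR161.2 site lay in the highest bin of 7 of the 10 members and the miR400 site in that of 2. Because the members share sequence and site spacing, they are not independent cases. In *AT1G62910*, *AT1G62914* and *AT1G63080* the highest bin held the TAS2 D6(-) site and not the miR161.2 site. Bins centred within 500 nt of the miR161.2 site held 78.8% (*AT1G63150*) to 99.1% (*AT1G63400*) of the CPM of the member. Bins of this length often span the site, so they do not show on which side of it the smRNAs lay.

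Individual siRNAs of the cluster were taken from the smRNA sequences that the study listed for *rdr6* and *sgs3*. That list was chosen by the study on these samples, so it is not independent evidence, and only its sequences were used. Of 1222 listed sequences, 31 matched a member without a mismatch, at 88 positions, all in coding sequence. 26 were 21 nt long and 5 were 22 nt long, and 23 matched the sense strand and 8 the antisense strand. 23 of the 31 matched at least 2 members, and 5 occurred at a single place in the genome. Outside the members they matched only *AT1G63070*, *AT1G63320* and an intergenic place.

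All 10 members had at least 1 match, and the share of other genes with a match was not counted. Only *AT1G62914*, *AT1G63080*, *AT1G63130* and *AT1G63150* had a match found at a single place in the genome. A match at several places does not show which gene the sequence came from. *AT1G62910* and *AT1G63130* had 17 each, *RPF3* had 14, *AT1G63400* had 11 and *AT1G63080* had 10. *AT1G63150* had 9, *AT1G62914* had 4, *RPF2* had 3, *AT1G63330* had 2 and *AT1G62590* had 1. In *AT1G63400*, 9 of the 11 matches were sense and 2 antisense, and none of them occurred at a single place, while its antisense gene row was the highest of the cluster. The sequence shared most widely matched 7 members and 8 places in the genome. A further antisense sequence, matched by 6 members, is shown with it as the sequences that the named-sequence rule gave for the 10 members.
Shared by 7 members: aatggattatgtaagagaggt
Shared by 6 members: tttgagacatctcgcggaaga

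A shared register was noticed among these siRNAs after their positions had been seen, and it is given as a description. Between the predicted cuts of TAS2 D6(-) and miR161.2, 21 listed sequences had 41 matches in the 8 members with both sites. 12 of the 21 sequences, with 27 of the 41 matches, lay in a single one of the 21 possible 21 nt registers, and these matches were found in all 8 members. Because related genes share sequence, the matches are not independent: the 41 matches fell at 15 distances from the cut, 8 of which were in this register. The register starts 1 nt 3′ of the base opposite position 10 of TAS2 D6(-), after allowance for the 2 nt overhang of antisense siRNAs. The siRNAs of the *TAS* loci above were counted from the base opposite position 10 of miR173 itself. By that rule the register would start 1 nt earlier, and none of the 21 sequences lay there. Downstream of the miR161.2 cut the 10 listed sequences were spread over 8 registers, and none of them lay in the one above.

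The sequences of the register are printed with the number of 21 nt cycles from the cut, where capitals mark bases that differ between sequences of the same cycle and length. Only members with a TAS2 D6(-) site are named beside them. The 2 sequences of cycle 0 differ in length and were not marked.
Cycle 0, sense, AT1G63080: atgggatatcaacctgatacc
Cycle 0, sense, AT1G62910 and AT1G63150: atgggatataaacctgatacct
Cycle 1, antisense, AT1G62910 and AT1G63150: ttagagttgtgaatgtaaagg
Cycle 3, sense, AT1G62910, AT1G62914 and AT1G63150: aAagcttcAgaagcAgtggct
Cycle 3, sense, AT1G63080: aAagcttcCgaagcTgtggct
Cycle 3, sense, AT1G63130: aGagcttcAgaagcAgtggct
Cycle 4, sense, AT1G62910 and AT1G63150: ttagttgatcaaatggttcaa
Cycle 5, sense, AT1G62910 and AT1G63150: agaggatgtcaaccagatctg
Cycle 7, sense, AT1G62910 and AT1G63150: aaCggattatgtaagagaggt
Cycle 7, sense, AT1G62590, AT1G62914, AT1G63080, AT1G63130, AT1G63330 and AT1G63400: aaTggattatgtaagagaggt
Cycle 10, sense, AT1G63130: gggaaaatagagcctggtgtt
Cycle 20, antisense, AT1G62910, AT1G63080, AT1G63130 and AT1G63400: catttggattgattttcctct

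Cycle 7 was represented in all 8 members, by 2 sequences that differ at 1 base. *RPF2* and *RPF3*, which have no TAS2 D6(-) site, also held a sequence of cycle 7. These matches lay at -303 nt from the predicted miR161.2 cut, as in the 8 members. *RPF3* also held the sequence of cycle 20, at -30 nt. These sequences matched members without the site as well as members with it, and which gene they came from was not tested. Cycle 3 had 3 variants over 5 members. The antisense siRNA of cycle 20 lies just 5′ of the miR161.2 site. *AT1G62910* had 7 of its 9 matches in this stretch in the register, *AT1G63150* 6 of 8, *AT1G63080* 4 of 9 and *AT1G63130* 4 of 8.

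**Figure D4:**
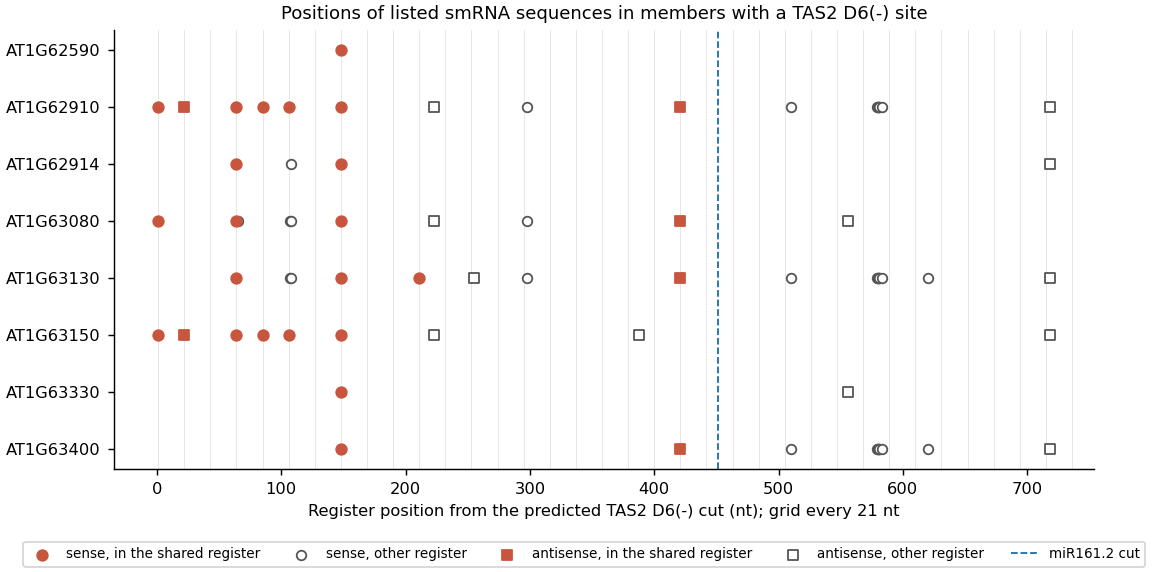
Positions of listed smRNA sequences in the 8 members with a TAS2 D6(-) site (y axis), as distance in nt from the predicted TAS2 D6(-) cut (x axis, grid every 21 nt). Circles are sense and squares antisense matches, filled red in the shared register and open in other registers, and the dashed line is the miR161.2 cut. The 27 red matches all lie left of that line.

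Transcripts of the members were near the level of other PPR-annotated genes in total RNA. In the main set the median sense level was -0.20, beside -0.66 for all genes and -0.13 for the 500 PPR-annotated genes. *AT1G63130* was the highest at 0.52, followed by *RPF2* at 0.31 and *RPF3* at 0.14. *AT1G62914* was at -0.06, *AT1G63150* at -0.10, *AT1G62590* at -0.29, *AT1G63080* at -0.47, *AT1G63400* at -0.79 and *AT1G62910* at -1.38. *AT1G63330* was at the lowest value, where no read was counted. The gene rows of total RNA also leave out reads with several mapping places. These held 76.8% (sense) and 76.6% (antisense) of total RNA CPM in the main set. As *AT1G63330* is 99.0% identical to *AT1G62590* in coding sequence, its value does not show that it lacks a transcript. The levels of the other members may be too low for the same reason. The range of the other 9 was narrow beside that of their smRNAs. However, the lowest value was -1.85 for sense total RNA and -3.86 for sense smRNAs, so the 2 ranges are not limited alike at the low end. The member with the most sense smRNA, *AT1G63080*, was 7th of the 10 in sense transcripts.

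Antisense transcripts of the members were at the lowest value of the table, -1.77, in all 10 cases in the main set, as were those of 341 of the 500 PPR-annotated genes. In the *rdr3* set antisense total RNA was above the lowest value in all 10 members, from -2.56 in *AT1G63330* to 0.46 in *AT1G63400* (with the doubt about controls given above), with *AT1G63130* at 0.36 and *AT1G63150* at 0.32. In the same set sense levels were 1.63 in *AT1G63080*, 1.17 in *AT1G63130* and 0.78 in *AT1G63150*, the 3 members richest in sense smRNA. Of the 9 miRNA and *TAS* loci all but *MIR400* and *TAS4* were also higher in the total RNA of this set. *MIR161* was at 7.18 in sense total RNA of the *rdr3* set and -1.56 in the main set, and *TAS1C* was at 6.39 sense and 7.03 antisense against 0.69 and -1.62. The sets were normalized separately, the total RNA protocol names fragments of 140 to 250 nt, and the part of small RNAs in the *rdr3* total RNA values was not tested.

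Among the 500 PPR-annotated genes the members took high ranks for smRNAs and not for transcripts. 4 members were among the 10 highest genes on each strand, 7 among the 20 highest and 9 among the 50 highest. For sense total RNA none was among the 50 highest. On the sense strand *AT1G63080*, *AT1G63130* and *AT1G63150* ranked 2nd, 3rd and 4th, behind *AT1G28000* at 4.38. On the antisense strand *AT1G63400*, *AT1G63150* and *AT1G63130* ranked 1st, 2nd and 4th. *AT1G63330* ranked 493rd and 485th.

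By gene rows, which leave out reads with several mapping places, the 9 other PPR-annotated genes of the region had median smRNA levels of -3.15 sense and -3.32 antisense. In the bins *AT1G63070* reached 4.93 and 4.94, above the highest bin of the member *RPF2* at 4.70. The 3 genes named next were also chosen by gene rows. The 3 with the highest antisense level were the pseudogene *AT1G62860* at 0.98 sense and 1.29 antisense, *AT1G63230* at -0.71 and -0.83, and *AT1G63630* at -1.22 and -2.75. All 3 had a miR161.2 and a miR161.1 site within the limit. A site of TAS2 D9(-) was also found in each, with scores of 0, 2 and 0, and among the members only in *AT1G63080* and *AT1G63130*, with scores of 4.5 and 4.

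**Figure D5:**
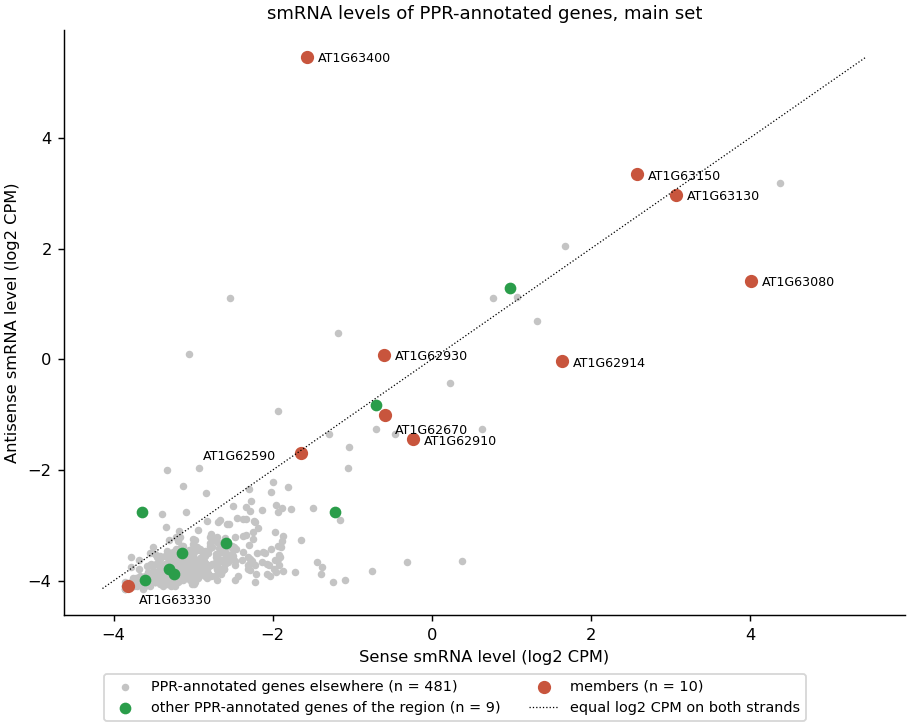
Sense (x axis) and antisense (y axis) smRNA level in log2 CPM in the main set for the 10 members (red), the 9 other PPR-annotated genes of the region (green) and the 481 elsewhere (grey), with a dotted line for equal levels. 9 members exceed the medians of -3.06 and -3.72, *AT1G63400* lies far above the line, and *AT1G63330* lies in the lower left corner.

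Genes with a pattern most like that of the cluster were sought by the Euclidean distance to the median of the members in sense smRNA, antisense smRNA and sense total RNA. The 5 nearest were *AT2G07688* (0.15), *AT2G41600*, a mitochondrial glycoprotein family gene (0.36), *AT2G07667* (0.48), the transcription factor gene *bZIP7* (0.51) and *AT5G50330*, a protein kinase gene (0.58). None is PPR-annotated. The members themselves lay 0.39 (*RPF3*) to 5.599 (*AT1G63330*) from their own median, and 28634 other genes were closer to it than *AT1G63330*.

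The loci that supply the predicted small RNAs were well represented in the main smRNA tables, except *MIR400*. *MIR161* had a sense level of 9.06, *MIR173* of 5.59 and *MIR400* of -1.09. *TAS2* had 7.32 sense and 8.88 antisense, *TAS1A* 5.37 and 5.45, *TAS1B* 5.59 and 6.40, and *TAS1C* 8.63 and 9.75. *TAS3*, whose siRNAs regulate auxin response factors, had 6.29 and 8.94, and *TAS4* -2.36 and -3.66. *TAS2*, the source of TAS2 D6(-), was thus above every member on each strand, while *MIR400* was below 7 members on the sense strand. Transcripts of the 10 pathway proteins, namely RDR6, SGS3, SDE5, DCL1, DCL2, DCL4, DRB4, HEN1, AGO1 and AGO7, ranged in main total RNA from 0.39 for *SDE5* to 5.52 for *AGO1*, which cleaves the targets of most plant miRNAs.

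Annotated neighbours overlap some members. *AT1G62590* shares 327 nt with the antisense gene *AT1G08537* and 2 nt with *NOGC1*, *AT1G63130* shares 448 nt with *MIR5652* on the other strand, and *AT1G63330* shares 100 nt with *AT1G63340*. All of these neighbours lie on the strand opposite to the member, so with strand-specific counting their own reads in such stretches would fall on the antisense row of the member. *AT1G62590* and *AT1G63330* are near-identical copies, and their gene rows and bin levels are uncertain because their reads cannot be told apart over most of the sequence. Compared among the members only, the closest copy of each of the other 8 members was 88.8% to 91.5% identical in coding sequence. Reads of these 8 members cannot always be told apart either. Of the words of the gene counted above, 32.9% (*AT1G63080*) to 85.1% (*AT1G62910*) occurred at several places in the genome. The gene rows and bin levels of these 8 members are therefore uncertain as well, to an extent that was not tested.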

How the data were processed

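The authors trimmed reads with cutadapt, mapped them to TAIR10 with TopHat (2 mismatches, up to 100 alignments per read), counted genes by strand with HTSeq and bins of 500 nt with bedtools, and used edgeR to compare mutants with Col-0 (versions not given in the sources used here). Some libraries were sequenced more than once, and their runs were pooled by the authors. Per the file headers, each deposited table holds a mean level in log2 CPM and the authors' own fold changes, p-values and FDR. Those comparison columns are the study's findings and were neither used nor printed. How reads mapped to several places were counted in bins is not given in the sources used here.

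The log2 CPM was read for 64795 rows and 239338 bins. 32834 of the 33601 gene rows matched the annotation. HTSeq's totals without a feature were kept out of gene counts. Bin and strand sums are of CPM less the lowest CPM of the table. Sites, 21 nt words and matches were searched in the TAIR10.1 sequence with Python 3.11.15, pandas 2.3.3, NumPy 2.4.6 and Biopython 1.88. The search was tested on simulated sequences. Members and lists were chosen with earlier results of these data known. Named genes were the 10 members, the miRNA and *TAS* loci, 3 PPR-annotated genes of the region by antisense level, the 5 nearest genes and, for each member, the listed smRNA matching the most members. *AT1G28000*, *AT1G63070*, *AT1G63320*, *NOGC1* and the siRNAs of the register were named after their values were seen.

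Genes counted as PPR-annotated by a text search were defined in 3 ways after values had been seen. The first held 503 genes, including *MIR161* and *TAS2* through their notes, the second 490 protein-coding genes and pseudogenes, and the third, used here, 500 with transcribed pseudogenes. Nucleotide identity of coding sequences replaced the intended protein identity, as no protein table was used.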

Additional observations from a re-analysis of the deposited data

How the results depend on the processing

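No paired analysis was possible because the values used are one mean per feature and library set, and leaving out a replicate was not possible for the same reason. With the CPM of a feature without reads subtracted, the median member level was -0.55 for sense smRNA, -0.060 for antisense smRNA and -0.75 for sense transcripts. In the *rdr3* set these medians were -3.66, -3.28 and -0.42. Members with a higher antisense than sense smRNA level numbered 5 in the *rdr3* set, 4 after subtraction (*AT1G62590* in addition) and 3 after centring of the strands. Against only those PPR-annotated genes above a log2 CPM of 0, 4 members instead of 9 lay above the median for sense and 4 for antisense smRNAs. Per kb of gene the count stayed at 9 on both strands, as it did with the 503-gene and 490-gene definitions, which were added after seeing the data. Under those definitions 4, 7 and 9 members were again among the 10, 20 and 50 highest genes on each strand. With 490 genes the region held 8 other PPR-annotated genes, and *AT1G63320* took the place of *AT1G62860* among the highest 3. With the 503-gene definition 3 members lay above the sense median of genes above 0. Only 3 members kept their rank with bins in place of gene rows. At score limits of 4 and 3 all 10 members had a predicted site, with miR400 in 9 and 5 members, TAS2 D6(-) in 8 at both limits, and miR161.2, miR400 and TAS2 D6(-) together in 7 and 3 members instead of 8. The cause of these changes was not tested. Low gene rows are limited by the lowest value of each table and not by a known depth.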
